A study of Saccharomyces cerevisiae with 6 samples.

Results

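Guanine nucleotides are made in yeast by a short branch that leaves the main purine pathway at inosine monophosphate (IMP), and phosphoribosyl pyrophosphate (PRPP) is the activated sugar on which purine synthesis starts. The genes described here are the 3 IMP dehydrogenase genes measured (IMD2, IMD3 and IMD4), the GMP synthase gene GUA1, the guanylate kinase gene GUK1, and the 5 PRPP synthetase genes PRS1 to PRS5. They were chosen by name from the array annotation, and all 10 were matched, each by 1 probe set, among 5449 Saccharomyces cerevisiae genes tested. The rule uses gene names, not measured values, though the genes were chosen with earlier results of these data known. Messenger RNA was measured on 6 Affymetrix arrays, 3 of a strain with a deletion of BAS1 and 3 of the reference strain FY4 with an intact BAS1, called wild type here. Both strains grew exponentially at 30 °C in batch culture, in minimal medium with glucose, and were harvested at equal cell density. FY4 is a laboratory strain of the S288C family. The labels give no parent and no marker for the deletion strain, and leave unsaid whether each replicate was its own culture. The p-values therefore cover the spread among these arrays, which may be technical. Values are log2 of the deposited intensities.

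Bas1 is a Myb-family activator that works with Pho2, and the pair is known for switching on purine synthesis genes when purine intermediates accumulate. IMP dehydrogenase converts IMP to XMP, GMP synthase aminates XMP to GMP, and guanylate kinase phosphorylates GMP to GDP. IMP dehydrogenase is the rate-limiting step of the branch, and IMD2 is known as the gene of this family that responds to guanine nucleotide shortage and to drugs that block the enzyme. PRPP synthetases join pyrophosphate to ribose 5-phosphate, a product of the pentose phosphate pathway, and PRPP then feeds purine, pyrimidine, histidine, tryptophan and NAD synthesis as well as base salvage.

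The deletion was read first. BAS1 (YKR099W) gave 4.86, 4.76 and 4.86 in the deletion arrays and 11.18, 10.96 and 11.14 in the wild-type arrays. All 3 deletion values lay under a background level set by probe sets of genes outside the RefSeq table of S. cerevisiae genes. BAS1 was at least 31.9-fold lower in the deletion strain (limma adjusted p = 2.7e-07). The fold is a bound, because the deletion values are background signal.

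Some features of the arrays moved with strain. The median of the tested genes was 11.10 to 11.14 in deletion arrays and 10.94 to 10.997 in wild-type arrays. All 16 probe sets for 18S and 25S ribosomal RNA had lower means in the deletion strain, with a median log2 difference of -3.09. The 3-prime signal of the ACT1 control exceeded its 5-prime signal by 0.25 to 0.29 in deletion arrays and by 0.21 to 0.24 in wild-type arrays. Of the a-cell markers, 1 of 7 was called higher (ASG7) and 1 lower (BAR1), and their summed intensity was 43411 to 54128 in deletion arrays and 44738 to 54308 in wild-type arrays. After each array's median was subtracted (array centring), 1 was higher and 2 lower, the added one being STE2 (-0.22, limma adjusted p = 0.0219). On the values as deposited, this pheromone receptor gene averaged 13.87 ± 0.05 in the deletion strain and 13.93 ± 0.07 in wild type (SD, n = 3 each). All 4 alpha-cell markers were called higher in the deletion strain, 3 of them after array centring. Their summed intensity was 3156 to 3434 in deletion arrays and 1351 to 1524 in wild-type arrays, and STE3 averaged 9.53 ± 0.13 in the deletion strain and 7.42 ± 0.06 in wild type (SD, n = 3 each). MF(ALPHA)1, a pheromone gene, was under background in wild type and at least 11.0-fold higher in the deletion strain. SAG1 and MF(ALPHA)2 rose less, by 1.35-fold and 1.23-fold, and MF(ALPHA)2 lost its call after array centring. Poly-A spike controls placed deletion replicate 1 and wild-type replicates 1 and 2 in a low set, and the other 3 arrays in a high set. Values within each spike set are given beside IMD2, GUA1 and PRS3, and values after array centring beside the member calls and list counts they change. Counts of the gene lists within a spike set are not given, because each set holds a single array of 1 strain. The part of the ribosomal RNA, ACT1 and mating-type marker signals was not tested.

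Across the 10 genes, IMD2 and PRS3 were higher and GUA1 was lower in the deletion strain, while 7 did not pass the threshold of an adjusted p under 0.05. Limma called 59.5% of all genes tested, 39.6% higher and 19.8% lower. The 3 called members were also the 3 whose arrays did not overlap between strains, a pattern that 67.5% of all genes showed. The median log2 difference was -0.023 over the members and 0.11 over all genes. All 10 members lay above background in all 6 arrays, and no filter on low values was applied.

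Some members with small differences gained a call with the scaling. Subtracting each array's median over the tested genes, the array centring above, lowers every difference by 0.15. It gave 7 called members, 2 higher and 5 lower, beside 27.2% of all genes called higher and 33.1% lower. The 4 members that gained a call were IMD4, PRS1, PRS4 and PRS5. PRS1, PRS4 and PRS5 were also called lower after quantile normalization, and PRS4 after cyclic loess. IMD2, PRS3 and GUA1 kept their calls and directions under array centring, quantile normalization and cyclic loess.

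**Figure D1:**
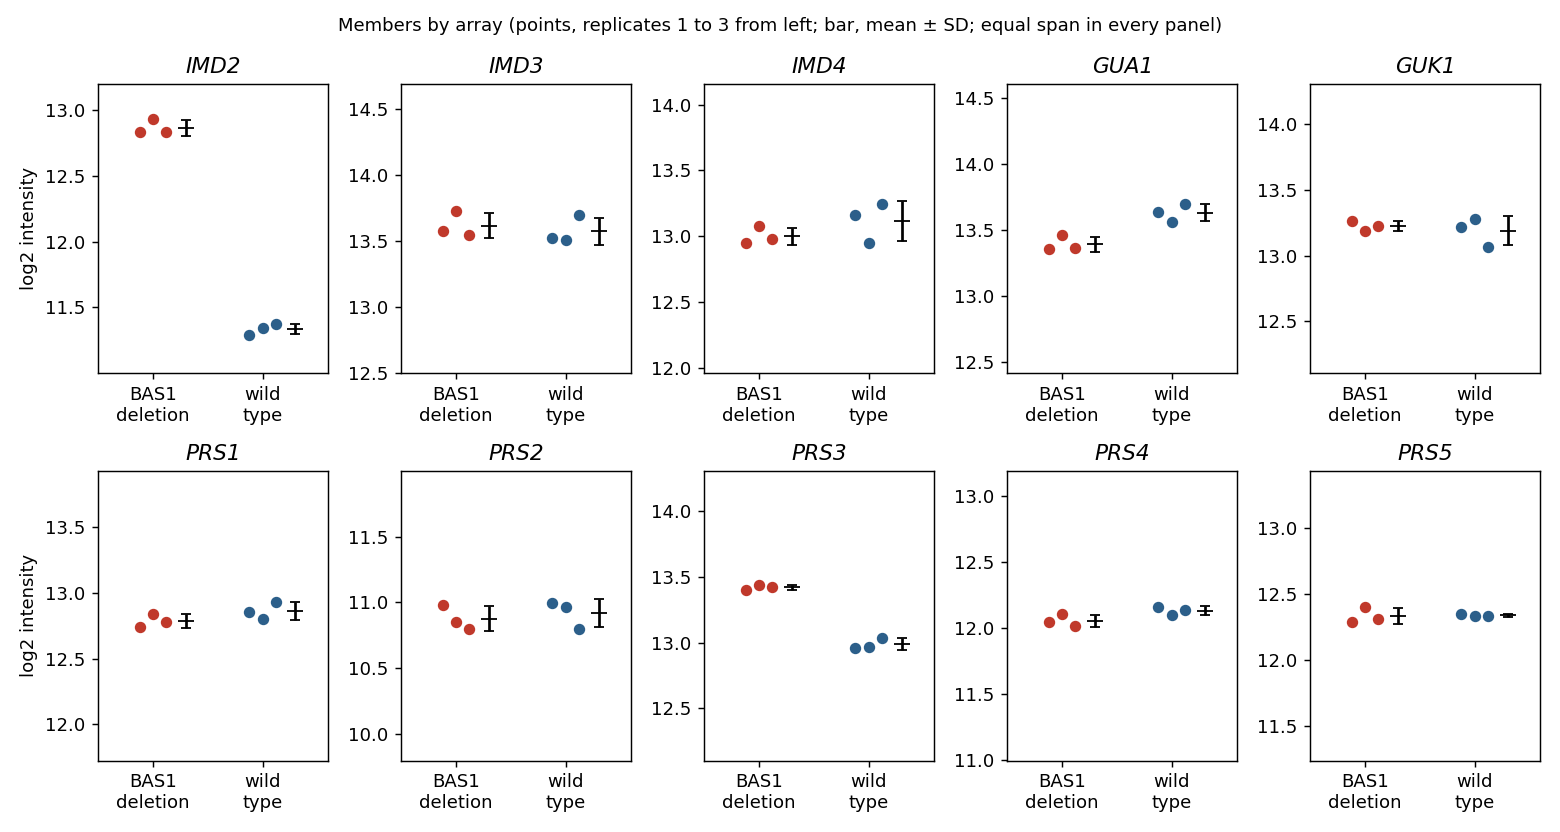
Log2 intensity of each member in each array, with the BAS1 deletion strain left of wild type in every panel and the same span of values in all panels. Points are arrays, and bars give the mean ± SD of 3 arrays. Only IMD2, GUA1 and PRS3 have strains that do not overlap.

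IMD2 (YHR216W) was the member with the largest difference. Its deposited intensities were 7288, 7810 and 7280 in the deletion arrays and 2509, 2594 and 2656 in the wild-type arrays. On the log2 scale these were 12.83, 12.93 and 12.83 in the deletion strain and 11.29, 11.34 and 11.37 in wild type. Every deletion array was thus well above every wild-type array, and the gap was many times the spread within either strain. The means were 12.86 ± 0.06 in the deletion strain and 11.34 ± 0.04 in wild type (SD, n = 3 each). IMD2 rose 2.88-fold (log2 difference 1.53, SE 0.05, 95% interval 1.40 to 1.65, limma adjusted p = 4.9e-06). A two-sided exact permutation test over the arrays gave p = 0.1, below which a design of 3 against 3 cannot go. Ranked over all genes it was the 228th largest rise, and 95.8% of genes had a lower difference. The difference was 1.51 within the low-spike arrays (limma adjusted p = 0.0068) and 1.51 within the high-spike arrays (limma adjusted p = 0.0018), each from 2 arrays against a single one that is assumed to vary like the others.

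The IMD2 probe set has the suffix _x, which Affymetrix gives where some probes match other sequences as well. Other IMP dehydrogenase transcripts can therefore add to its signal. Among these, IMD1 is a disrupted near-copy of IMD2 and was not in the annotation used here. The other 9 members are on probe sets without such a suffix.

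The other IMP dehydrogenase genes did not follow IMD2. IMD3 (YLR432W) read 13.58, 13.73 and 13.55 in the deletion arrays and 13.52, 13.51 and 13.69 in the wild-type arrays, so the strains overlapped. Its difference was 0.043 (95% interval -0.14 to 0.23, limma adjusted p = 0.647). IMD4 (YML056C), whose intron carries a small nucleolar RNA, read 12.95, 13.07 and 12.98 in the deletion arrays and 13.16, 12.95 and 13.24 in the wild-type arrays. Here wild-type replicate 2 stood with the deletion arrays. The IMD4 difference was -0.12 (95% interval -0.32 to 0.09, limma adjusted p = 0.277). It was -0.20 without wild-type replicate 2 (limma adjusted p = 0.0445) and -0.27 after array centring (limma adjusted p = 0.0439), both past the threshold.

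Comparing genes within each array removes a shift common to the whole array. The IMD2 change exceeded the IMD3 change by 1.48 and the IMD4 change by 1.64 on the log2 scale. The log2 value of IMD2 minus that of IMD3 lay between -0.79 and -0.72 in the deletion arrays and between -2.32 and -2.17 in the wild-type arrays. IMD3 and IMD4 differed less, with a change of IMD3 that was 0.16 above that of IMD4. None of these 3 comparisons overlapped between strains, a pattern that 67.5% of single genes showed. IMD3 minus IMD4 was narrowly separate, at 0.57 to 0.65 in the deletion arrays and 0.36 to 0.56 in the wild-type arrays. Each comparison gave p = 0.1 in the exact permutation test, or 0.144 after adjustment over 13 pairs.

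GUA1 (YMR217W), the GMP synthase gene, was the only member called lower on the values as deposited. It read 13.35, 13.46 and 13.36 in the deletion arrays and 13.64, 13.56 and 13.70 in the wild-type arrays. The highest deletion value lay just under the lowest wild-type value, so the strains were separate by a narrow margin. GUA1 fell 1.18-fold (log2 difference -0.24, SE 0.06, 95% interval -0.38 to -0.10, limma adjusted p = 0.0113). The exact permutation test gave p = 0.1. The call ended within the low-spike arrays (-0.25, limma adjusted p = 0.105) and within the high-spike arrays (-0.28, limma adjusted p = 0.0646), where the size was at least as large and each set holds 3 arrays.

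GUK1 (YDR454C), the guanylate kinase gene, stood at 13.26, 13.19 and 13.23 in the deletion arrays and at 13.22, 13.28 and 13.07 in the wild-type arrays. The strains overlapped, and wild-type replicate 3 was the lowest array. Its difference was 0.036 (95% interval -0.12 to 0.20, limma adjusted p = 0.663), and -0.12 after array centring (limma adjusted p = 0.142). Along the branch, on the values as deposited, the first step thus had a gene that rose beside 2 that were not called. The middle step had a gene that fell slightly, and the last step a gene that was not called.

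**Figure D2:**
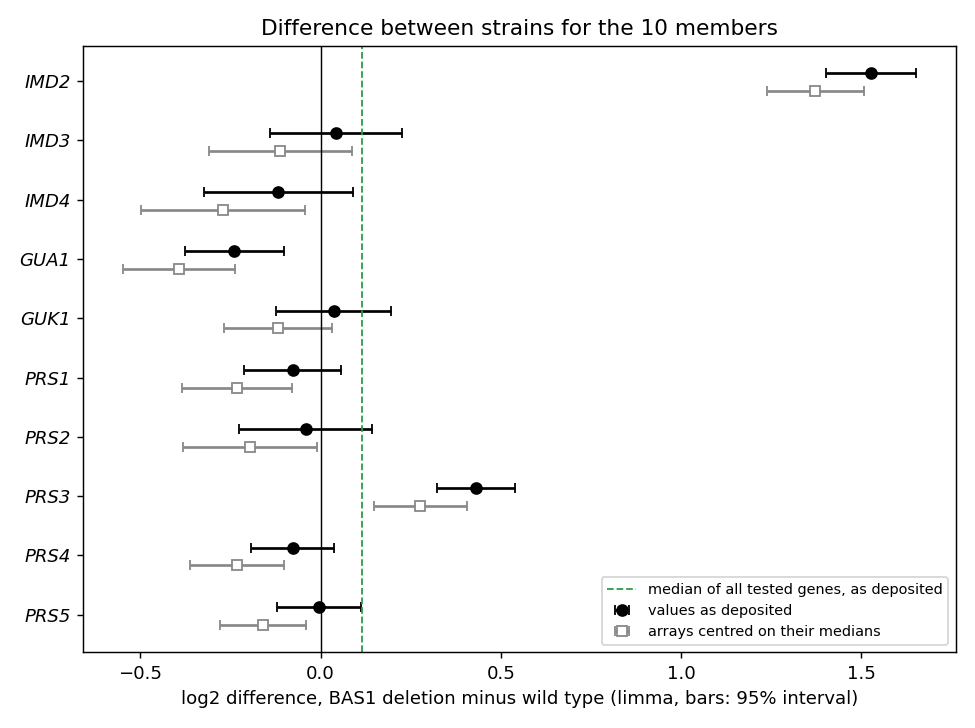
Log2 difference of each member, BAS1 deletion minus wild type, with 95% intervals from limma. Filled circles are values as deposited, open squares are values after centring each array on its median, and the dashed line is the median of all tested genes (0.11). IMD2, PRS3 and GUA1 keep intervals clear of 0 on both scales, whereas IMD4, PRS1, PRS4 and PRS5 are called on the centred values and not on the values as deposited.

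Among the 5 PRPP synthetase genes, PRS3 (YHL011C) was the only one called on the values as deposited. It read 13.40, 13.44 and 13.42 in the deletion arrays and 12.96, 12.97 and 13.04 in the wild-type arrays. The arrays of each strain lay close together and far from the other strain. The means were 13.42 ± 0.02 in the deletion strain and 12.99 ± 0.04 in wild type (SD, n = 3 each). PRS3 rose 1.35-fold (log2 difference 0.43, SE 0.05, 95% interval 0.32 to 0.54, limma adjusted p = 3.8e-04), and the exact permutation test gave p = 0.1. It was a moderate rise among all genes, since 76.1% had a lower difference. It was 0.44 within the low-spike arrays (limma adjusted p = 0.0339), 0.39 within the high-spike arrays (limma adjusted p = 0.0235) and 0.28 after array centring (limma adjusted p = 0.0044).

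PRS1 (YKL181W), whose product is known to form complexes with that of PRS3, did not follow it. It read 12.74, 12.84 and 12.78 in the deletion arrays and 12.86, 12.80 and 12.93 in the wild-type arrays, with overlap. Its difference was -0.077 (95% interval -0.21 to 0.06, limma adjusted p = 0.270), and -0.23 after array centring (limma adjusted p = 0.0180). The within-array comparison put the PRS1 change 0.51 under the PRS3 change. PRS1 minus PRS3 was -0.66 to -0.59 in the deletion arrays and -0.17 to -0.10 in the wild-type arrays (exact permutation p = 0.1, adjusted 0.144).

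PRS2 (YER099C) was 10.98, 10.85 and 10.80 in the deletion arrays and 11.00, 10.96 and 10.80 in the wild-type arrays. The ranges nearly coincided, and the difference was -0.042 (95% interval -0.23 to 0.14, limma adjusted p = 0.661). PRS4 (YBL068W) was 12.05, 12.10 and 12.01 in the deletion arrays and 12.16, 12.10 and 12.14 in the wild-type arrays. The PRS4 difference was -0.078 (95% interval -0.19 to 0.04, limma adjusted p = 0.200), and it was -0.23 after array centring (limma adjusted p = 0.0097). PRS5 (YOL061W) was 12.29, 12.40 and 12.31 in the deletion arrays and 12.35, 12.33 and 12.34 in the wild-type arrays. Its difference was -0.0052 (95% interval -0.12 to 0.11, limma adjusted p = 0.933), and -0.16 after array centring (limma adjusted p = 0.0304). The intervals of PRS1, PRS2, PRS4 and PRS5 all end under the lower bound of the PRS3 interval on the values as deposited.

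Within arrays, all 4 comparisons of PRS3 with another PRS gene were without overlap between strains, with PRS3 higher by 0.44 to 0.51 in its change. Of the 6 comparisons among PRS1, PRS2, PRS4 and PRS5, the changes differed by at most 0.073, and 4 overlapped between strains. The exceptions were PRS1 with PRS5 and PRS4 with PRS5, both narrowly separate. In all, 9 of 13 pairs did not overlap, each at p = 0.1 in the exact permutation test. The share of all gene pairs without overlap was not computed, while 67.5% of single genes did not overlap between strains. The pairs reuse genes, such as PRS3 and IMD2, so they are not separate counts. A p that misses a threshold does not show equal change.

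**Figure D3:**
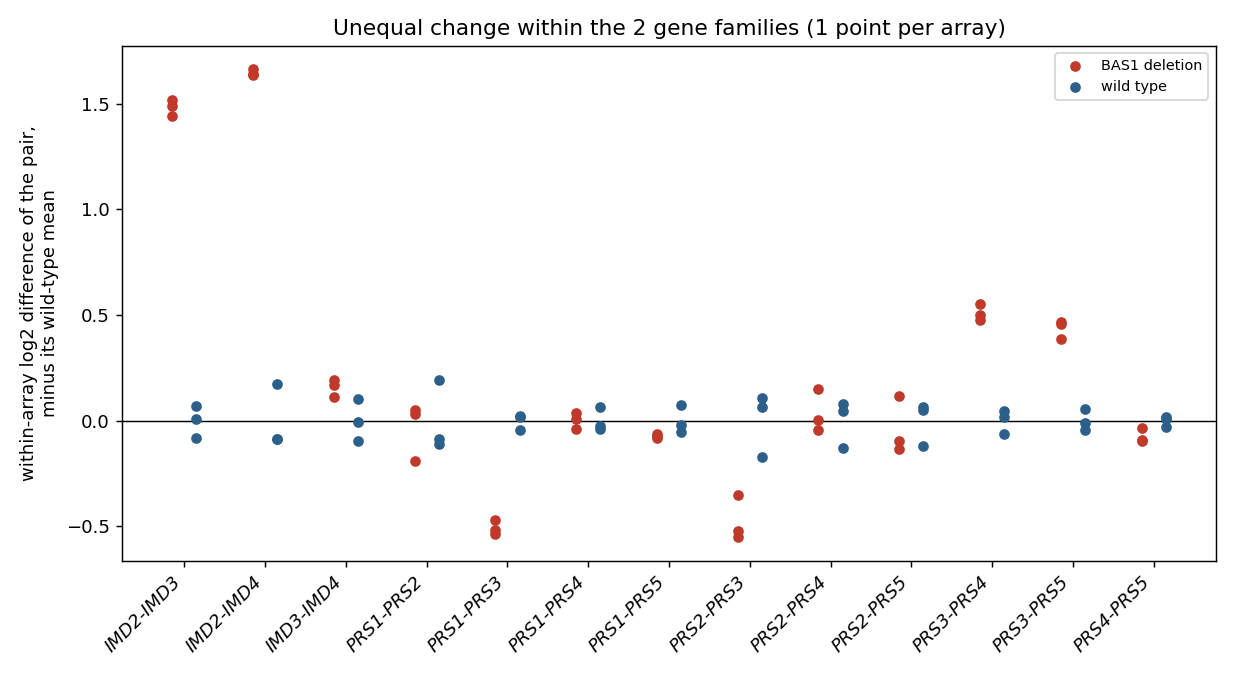
Log2 value of the first gene of a pair minus that of the second in each array, shifted so that the wild-type mean of each pair is 0. Points are arrays, with BAS1 deletion left of wild type. Pairs that hold IMD2 or PRS3 stand apart by 1.48 and 1.64 (IMD2) and by 0.44 to 0.51 in size (PRS3). IMD3-IMD4, PRS1-PRS5 and PRS4-PRS5 also do not overlap between strains, at smaller sizes of 0.16, -0.072 and -0.073.

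The steps before and beside the branch were read from gene lists of the same pathways. Their counts stand beside the shares of all genes, 39.6% higher and 19.8% lower as deposited, or 27.2% higher and 33.1% lower after array centring, and no test compared a list with other genes. Upstream, all 8 measured genes of IMP synthesis were lower in the deletion strain, by a median log2 difference of -1.43, among them ADE17 at -3.51 and ADE4, which encodes the PRPP amidotransferase that opens the pathway, at -1.76. ADE5,7 was not matched and was not analysed here. In the AMP branch, which competes with the GMP branch for IMP, 2 of 7 genes were called higher and 3 lower, or 1 and 3 after array centring. ADE12, which encodes the adenylosuccinate synthetase of the step opposite IMP dehydrogenase, was 12.93 ± 0.07 in the deletion strain and 13.72 ± 0.03 in wild type (SD, n = 3 each), and fell 1.73-fold. The gene of the next enzyme, ADE13, which also acts in IMP synthesis, fell 2.51-fold. ADK2, a mitochondrial adenylate kinase gene, fell 1.37-fold. AMD1, which encodes the AMP deaminase that returns AMP to IMP, rose 1.34-fold. At the fork of the pathway, the genes of the 2 competing steps thus gave a rise for IMD2 and a fall for ADE12. IMD3 (0.043) and IMD4 (-0.12) were not called on the values as deposited. After array centring IMD4 was called lower, at -0.27 (limma adjusted p = 0.0439).

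Of 7 genes of guanine salvage and turnover, limma called 0 higher and 4 lower, or 5 lower after array centring. The count higher was 1 at an unadjusted p under 0.05, and also 1 with dim genes left out or with the mean of probe sets. At an unadjusted p that gene was GUD1, the guanine deaminase gene, named after its value was seen. HPT1, which encodes the enzyme that makes GMP and IMP from guanine and hypoxanthine with PRPP, was 11.49 ± 0.06 in the deletion strain and 13.27 ± 0.08 in wild type (SD, n = 3 each), a 3.43-fold fall. PNP1, the purine nucleoside phosphorylase gene, was lower by 1.37-fold, GDA1, a guanosine diphosphatase gene, by 1.30-fold and XPT1, the xanthine phosphoribosyltransferase gene, by 1.29-fold.

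In the list of guanine nucleotide use, 6 of 7 genes were called higher, or 4 after array centring, and 1 was lower on both scales. Among the 6 were RNR1, RNR2 and RNR4, subunit genes of the same enzyme, which also acts on other nucleotides. RNR1 and RNR4 were named after their values were seen. YNK1, the nucleoside diphosphate kinase gene that takes GDP to GTP, was 13.56 ± 0.05 in the deletion strain and 12.36 ± 0.17 in wild type (SD, n = 3 each), a rise of 2.29-fold. RIB1, the GTP cyclohydrolase II gene of riboflavin synthesis, rose 2.11-fold. RNR2, a ribonucleotide reductase subunit gene, rose 1.42-fold. The 1 lower gene of this list was ADE12, whose enzyme spends GTP.

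On the PRPP side, 9 of 13 pentose phosphate genes were called higher and 2 lower, or 5 and 2 after array centring. The largest rises were in minor isoenzyme genes. NQM1, a transaldolase paralog, was 11.1-fold higher, TKL2, a transketolase gene, 9.39-fold, GND2, a 6-phosphogluconate dehydrogenase gene, 4.93-fold and SOL4, a 6-phosphogluconolactonase gene, 3.60-fold. Their main counterparts were named after their values were seen, with log2 differences of 0.20 for TAL1, 0.12 for TKL1 (not called), 0.14 for GND1 and -0.14 for SOL3 (called lower). The TAL1 and GND1 calls ended after array centring. RKI1, which encodes the isomerase that forms ribose 5-phosphate, fell 1.24-fold, and was also named after its value was seen.

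Of 12 genes whose products consume PRPP, 3 were called higher and 4 lower, or 2 and 6 after array centring, with a median log2 difference of -0.023. HPT1, ADE4, XPT1 and HIS1 were lower. HIS1, which encodes the first enzyme of histidine synthesis, fell 1.61-fold. URA10, the minor orotate phosphoribosyltransferase gene of pyrimidine synthesis, was 11.44 ± 0.09 in the deletion strain and 9.07 ± 0.16 in wild type (SD, n = 3 each), a 5.17-fold rise. Some genes stand in more than 1 list, namely HPT1, XPT1, ADE4, ADE12 and ADE13, so the lists are not separate counts.

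**Figure D4:**
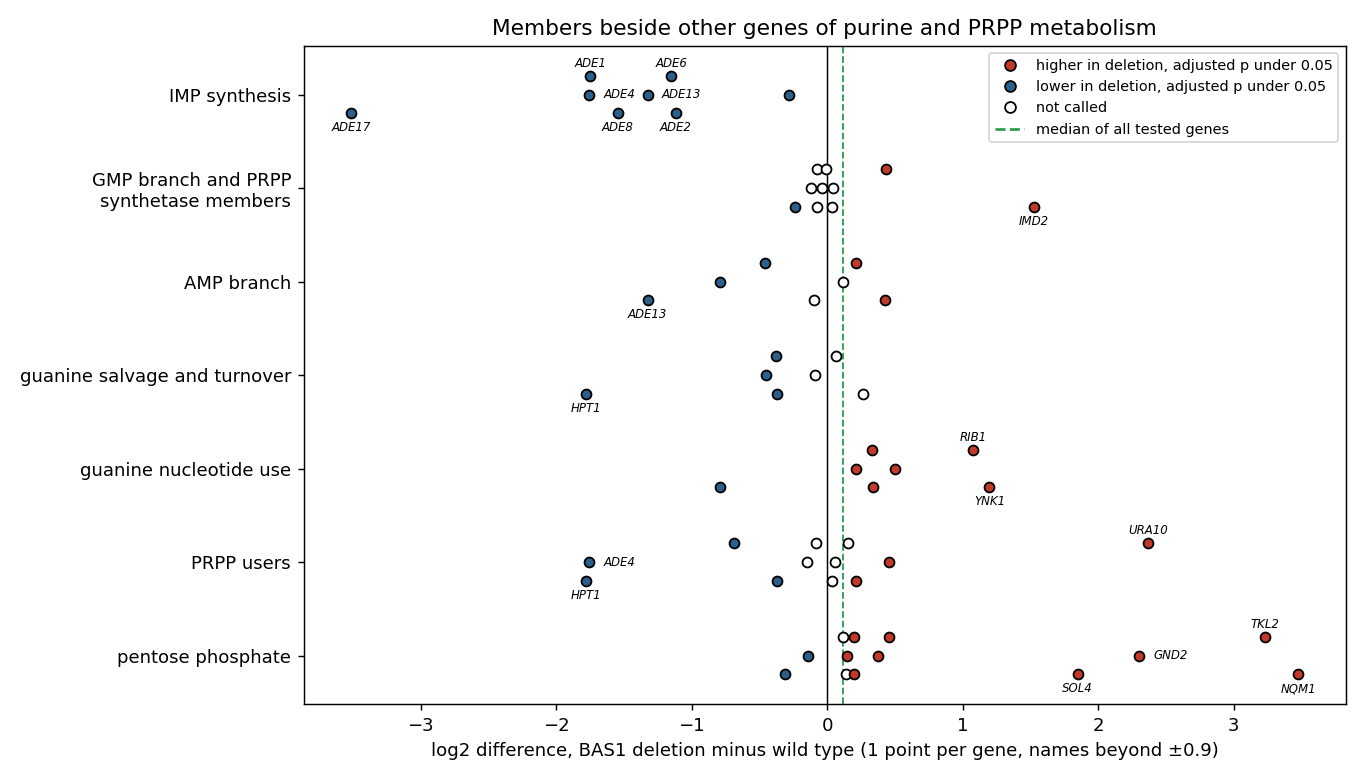
Log2 difference, BAS1 deletion minus wild type, for each gene of the lists named at the left, with 1 point per gene and the points of a row spread vertically for legibility. Red is called higher, blue called lower and white not called at a limma adjusted p under 0.05, and the dashed line is the median of all genes. All 8 IMP synthesis genes lie left of 0, and IMD2 is the one member beyond 1.

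The genes outside the list with the profile nearest to IMD2 were found by the root mean square difference of log2 values, centred per gene, over the 6 arrays. They were SAM3, an S-adenosylmethionine permease gene, at 0.041, TDH1, a glyceraldehyde-3-phosphate dehydrogenase gene, at 0.049, ARN1, a siderophore transporter gene, at 0.059, YJL103C at 0.065 and TNA1, a nicotinic acid permease gene, at 0.067. SAM3 read 12.76, 12.85 and 12.75 in the deletion arrays and 11.32, 11.29 and 11.37 in the wild-type arrays. A similar size of rise follows from how SAM3 was chosen. Like IMD2 it was highest in deletion replicate 2, as were 46.6% of all genes within that strain. For GUA1 the nearest were SEN54, a tRNA splicing endonuclease subunit gene, at 0.015, SEC24, a vesicle coat gene, at 0.017, SER33, a phosphoglycerate dehydrogenase gene, at 0.021, and SSH1 and NOP58, at 0.022 each. Differences of the GUA1 neighbours ran from -0.27 to -0.23. With 6 arrays in 2 strains this measure is dominated by the difference between strains.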

How the data were processed

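The authors deposited a linear intensity for every probe set of each array. RMA from affy, under R 2.8.0, appears in the submitters' processing notes. RMA corrects background, normalizes between arrays and summarises probes, and it compresses low values, so folds of dim genes can be understated. The genome build of the annotation is unstated in these sources, so its coordinates were not used. Flanking genes were found by position in the RefSeq table (assembly R64). Here log2 was taken. Probe sets with 1 gene of the RefSeq table (assembly R64) were kept, 5498 of 10928, and the brightest per gene gave 5449 genes.

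Differences between strains come from limma 3.58.1 under R 4.3.3, by lmFit and eBayes with no covariate. P-values were adjusted over all genes by Benjamini-Hochberg. The code was tested on simulated data. Background was 6.09, the 95th percentile over 1746 probe sets with 1 gene outside the RefSeq table. It was replaced by an array's own percentile if that was higher. The species of these probe sets was not checked. A group under it gives a bound. Single values also had an exact permutation test. Other genes named after their values were seen are marked so. Named by rule were all members, BAS1, the mating-type markers, up to 4 called genes per list with the largest change, and the 5 nearest profiles of IMD2 and GUA1. Members and lists were chosen with earlier results of these data known. Alternatives were 3 other scalings, the features tested, a filter, the probe set rule, variance models, blocks and leaving arrays out. The number of arrays limits the precision.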

Additional observations from a re-analysis of the deposited data

How the results depend on the processing

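IMD2 and PRS3 were called higher under all 18 alternatives, at 1.37 to 1.55 and 0.28 to 0.46 on the log2 scale, and BAS1 kept its call under all of them. GUA1 was called lower in 16, and lost the call in each spike set. Testing all probe sets, leaving dim genes out or averaging probe sets could change only the p-values of members, not their differences. Each member has 1 probe set and lies above background. Members called lower numbered 1 as deposited, 5 after array centring, 4 after quantile normalization, 2 after cyclic loess and 0 by limma in each spike set (at an unadjusted p under 0.05, 0 in the low-spike and 1 in the high-spike arrays). With 1 array left out they numbered 1 to 2, 2 without wild-type replicate 2, where IMD4 was added. All genes called lower numbered 1803 after array centring and 1935 after quantile normalization (1356 higher). Low-spike arrays alone called 1593 genes, 1102 higher and 491 lower, and high-spike arrays alone called 614 lower, in both cases from fewer arrays.

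Differences near 0 changed sign without a call. IMD3 was -0.11 after array centring, -0.012 after quantile normalization and -0.057 within the high-spike arrays, and ran from -0.011 to 0.10 with 1 array left out. GUK1 was -0.12 after array centring and -0.077 after quantile normalization, and ran from -0.025 to 0.081. PRS2 was 0.015 with spike level as a block, 0.0016 in low-spike arrays and 0.029 in high-spike arrays. PRS5 was 0.022 within the high-spike arrays and ran from -0.038 to 0.019. The cause was not tested.

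The deviations of arrays with the same replicate number correlated across genes at 0.44 for number 1, -0.51 for number 2 and -0.44 for number 3, so the numbers were not taken as pairs. Across numbers, deletion replicate 2 with wild-type replicate 3 gave 0.75, and deletion replicate 3 with wild-type replicate 2 gave 0.46. With the replicate block, limma called 3140 genes and the same numbers of members, 2 higher and 1 lower.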

Other observations

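The tested genes that flank each member in the RefSeq table were looked up after the values were seen. Of 19 such neighbours, 8 were called higher and 2 lower in the deletion strain, where 39.6% of all genes were called higher and 19.8% lower. Both neighbours of PRS3 were called higher. YHL012W was 9.02 ± 0.29 in the deletion strain and 6.85 ± 0.11 in wild type (SD, n = 3 each), a log2 difference of 2.17 (limma adjusted p = 5.6e-05). ETP1 was 8.76 ± 0.05 in the deletion strain and 8.32 ± 0.12 in wild type (SD, n = 3 each), a difference of 0.44 (limma adjusted p = 0.0024). Both neighbours of PRS2, UBP9 and UBC6, were also called higher, at 0.38 and 0.18. The neighbours of GUA1, SKY1 and TRS130, gave 0.15 and -0.097, neither called (limma adjusted p = 0.0919 and 0.327).

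Within the deletion strain, 8 of the 10 members had their highest value in replicate 2, where 46.6% of all genes did. Within wild type, 6 members were highest in replicate 3, where 36.6% of all genes were. The spread within strains differed among the members. The pooled SD was 0.034 for PRS3, with 6.33% of genes having a smaller one, and 0.12 for IMD4, with 67.1% of genes having a smaller one.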
